A study of Mus musculus with 64 samples.

Results

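Aminoacyl-tRNA synthetases are the enzymes that load each amino acid onto its transfer RNA, and 37 genes for them were followed here in sorted mouse microglia labelled as knockout for the Rieske subunit of respiratory complex III. The genes were taken by symbol, as 1 capital letter for the amino acid followed by ars, with Eprs, Farsa and Farsb added. Symbols ending in 2 formed the mitochondrial class of 17 genes and the others the cytosolic class of 20 genes. These were 37 of the 45708 genes in the deposited table, and all 37 passed the filter on low counts that left 18413 genes for testing.

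Microglia, the resident macrophages of the brain, had been sorted from whole brain by CD11b and CD45. The libraries carry the genotype RISP KO, RISP Het or RISP WT, where RISP is the Rieske protein encoded by Uqcrfs1, and the alleles, any Cre driver, sex and exact age are not given in the sources used here. Adult groups were naive (13 KO, 13 Het and 5 WT libraries), given cuprizone, a copper chelator that strips myelin (6 KO and 4 Het), or given PLX3397, which blocks CSF1R, a receptor microglia need to survive. The PLX3397 libraries are labelled depletion (2 KO, 2 Het and 4 WT) or repopulation (4 KO, 4 Het and 4 WT). The remaining 3 of the 64 libraries came from old naive Het mice and had no KO counterpart. Nothing says whether replicates are separate animals, so p-values measure the spread between these libraries, part of which may be technical.

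Depth ran from 2.7 to 24 M counts per library, with a median of 11.9 M. The libraries fell into sets by how many counts fell on the non-coding genes Gm26917 and Yam1 and by depth, and KO was compared with its controls only inside a set. Naive KO 1-5, Het 1-4 and WT 1-5 and all PLX3397 libraries belonged to a set of 34 in which these genes held below 1% (ncRNA-poor, 9.3 to 16.3 M counts). Naive KO 6-11 and Het 5-11 formed a set of 13 at 6.4 to 11.7 M counts, naive KO and Het 12-13 belonged to 7 deep libraries of 15.9 to 24 M, and the 10 cuprizone libraries were the shallowest, at 2.7 to 5.1 M. Uqcrfs1, read first as a check of the labels, was lower in KO libraries in all 9 comparisons by edgeR's quasi-likelihood test, by 1.73 to 4.00 on the log2 scale, and KO and control ranges did not overlap. The microglial markers Tmem119, P2ry12 and Cx3cr1 stood at 758 CPM (counts scaled to library size by TMM) or more in every compared library. One library stood apart from its group. Naive KO 1 had a mean level over the 20 cytosolic genes of 5.87 log2 CPM, beside 6.30 to 6.45 in KO 2-5, 5.82 to 6.01 in Het 1-4 and 5.90 to 5.99 in WT 1-5. Its Uqcrfs1, at 8.65 CPM, was as low as in the other 4 KO libraries (5.33 to 9.32 CPM), while its Atf5, a target of ATF4, stood at 12.3 CPM beside 42.0 to 94.6 CPM in those 4.

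Cells hold 2 sets of synthetases because proteins are made both in the cytosol and inside mitochondria. The cytosolic enzymes serve the ribosomes that translate nuclear messages, and several of them sit in a multi-synthetase complex held together by the scaffold proteins Aimp1, Aimp2 and Eef1e1. The mitochondrial enzymes are also encoded in the nucleus, are imported, and charge the transfer RNAs used to make the few respiratory chain subunits that mitochondrial DNA encodes. Gars and Kars each encode both forms of their enzyme, so these genes serve both compartments although their symbols place them in the cytosolic class. Genes for cytosolic synthetases are known targets of ATF4, the transcription factor of the integrated stress response, which binds DNA with C/EBP partners at short composite elements.

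Promoter windows of 6 cytosolic genes are shown because many members of that class rose in the same comparisons. RefSeq (GRCm38.p6) gave a window from 250 bases before to 50 bases after the start for 27 of the 37 genes, 13 cytosolic and 14 mitochondrial. The start is that of RefSeq and can differ from the gene spans printed further on. The Aars window lies inside its printed span, and the Sars window lies wholly outside its own. The core of the C/EBP-ATF element, TGATGNAA on either strand, was found in 5 of 13 cytosolic genes (Aars, Gars, Iars, Tars and Yars) and in 0 of 14 mitochondrial genes, beside 3.97% of 32851 mouse promoter windows of the same length. The palindrome TGACGTCA was also searched; it was in none of the 28 windows of members (Aars2 has 2) and in 1.79% of all windows. The matches lay 112 bases before and 9 bases after the start in Aars (chr8:111033592-111033891, plus strand), 30 before in Gars (chr6:55037751-55038050, plus strand), 7 after in Iars (chr13:49681880-49682179, plus strand), 15 before in Tars (chr15:11399609-11399908, minus strand) and 3 after in Yars (chr4:129189653-129189952, plus strand). Sars (chr3:108445210-108445509, minus strand) is printed beside them because it rose most often of all members together with Gars and its window holds no match; the windows of Eprs and Mars hold none either. Each run is the gene's own strand, with the match in capitals. A match describes these letters and is not a measured binding site.
Aars: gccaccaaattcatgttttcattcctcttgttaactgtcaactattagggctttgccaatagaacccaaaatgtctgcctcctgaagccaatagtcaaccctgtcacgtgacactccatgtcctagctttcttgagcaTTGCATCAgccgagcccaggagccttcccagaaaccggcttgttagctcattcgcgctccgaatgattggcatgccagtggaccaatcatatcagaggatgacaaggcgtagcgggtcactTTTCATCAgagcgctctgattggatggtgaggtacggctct
Gars: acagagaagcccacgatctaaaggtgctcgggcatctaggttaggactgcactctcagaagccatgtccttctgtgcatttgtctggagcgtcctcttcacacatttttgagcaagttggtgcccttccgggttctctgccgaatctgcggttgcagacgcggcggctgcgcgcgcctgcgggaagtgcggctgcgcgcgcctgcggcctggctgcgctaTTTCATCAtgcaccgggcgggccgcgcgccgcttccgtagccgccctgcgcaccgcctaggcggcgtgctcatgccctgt
Iars: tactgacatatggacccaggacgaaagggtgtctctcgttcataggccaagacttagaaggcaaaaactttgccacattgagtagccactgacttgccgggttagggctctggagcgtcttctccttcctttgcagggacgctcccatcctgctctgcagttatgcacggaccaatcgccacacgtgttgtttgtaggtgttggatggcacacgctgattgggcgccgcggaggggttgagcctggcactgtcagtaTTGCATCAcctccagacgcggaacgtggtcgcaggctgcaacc
Tars: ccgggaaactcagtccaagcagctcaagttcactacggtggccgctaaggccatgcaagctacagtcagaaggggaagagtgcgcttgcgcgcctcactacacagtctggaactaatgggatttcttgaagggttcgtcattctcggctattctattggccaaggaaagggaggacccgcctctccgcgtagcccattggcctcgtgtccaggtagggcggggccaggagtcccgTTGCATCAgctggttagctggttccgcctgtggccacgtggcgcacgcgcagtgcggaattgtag
Yars: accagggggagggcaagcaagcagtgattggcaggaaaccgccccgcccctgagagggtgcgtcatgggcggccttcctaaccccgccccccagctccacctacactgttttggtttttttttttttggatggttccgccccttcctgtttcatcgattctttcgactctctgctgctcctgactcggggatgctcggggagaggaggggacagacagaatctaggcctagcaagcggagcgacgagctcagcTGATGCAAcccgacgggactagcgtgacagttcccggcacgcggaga
Sars: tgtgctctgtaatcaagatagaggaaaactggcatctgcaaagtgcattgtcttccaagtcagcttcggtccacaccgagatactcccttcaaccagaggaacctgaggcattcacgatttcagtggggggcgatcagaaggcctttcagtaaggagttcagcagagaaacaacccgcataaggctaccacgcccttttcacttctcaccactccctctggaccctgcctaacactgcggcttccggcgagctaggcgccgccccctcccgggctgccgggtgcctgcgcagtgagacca

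Members of the cytosolic class were called higher in KO microglia than in Het or WT microglia in 8 of the 9 comparisons, and mitochondrial synthetase genes seldom passed the test. A gene was called when its Benjamini-Hochberg adjusted p over all 18413 genes was under 0.05. Single comparisons called 0 to 15 of 20 cytosolic and 0 to 3 of 17 mitochondrial members higher, beside 0.217% to 8.16% of all genes. Of 61 calls over the 9 comparisons, 56 were of cytosolic and 5 of mitochondrial members, and all 61 were higher in KO. The 9 comparisons are not independent. In the naive ncRNA-poor libraries, at depletion and at repopulation, the same KO libraries were compared with Het and again with WT. A gene called against both controls there adds a call for each, so counts of calls and of comparisons are not counts of separate replications. No member was called lower in any of the 9 comparisons by edgeR, none had an unadjusted p under 0.05 in that direction, and DESeq2 called none lower either. These are levels in bulk RNA, in which fewer cells of a type and less RNA per cell cannot be told apart.

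The classes also differed in how precisely they were measured. The median standard error of the log2 fold change was 0.12 to 0.22 in the cytosolic class and 0.25 to 0.45 in the mitochondrial class, so a change of the same size passed less readily in the mitochondrial genes. Per kilobase of exon, the median cytosolic gene stood at 12.3 to 16.4 CPM in KO groups and at 9.79 to 12.9 CPM in control groups. The median mitochondrial gene stood at 1.91 to 2.93 CPM per kilobase in KO groups and at 1.62 to 2.48 CPM per kilobase in control groups. Nars had the highest level per kilobase of the cytosolic class in every group, and Mars2 had the lowest of the mitochondrial class in every group but 2, Cars2 in naive KO 12-13 and Nars2 in cuprizone Het.

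**Figure D1:**
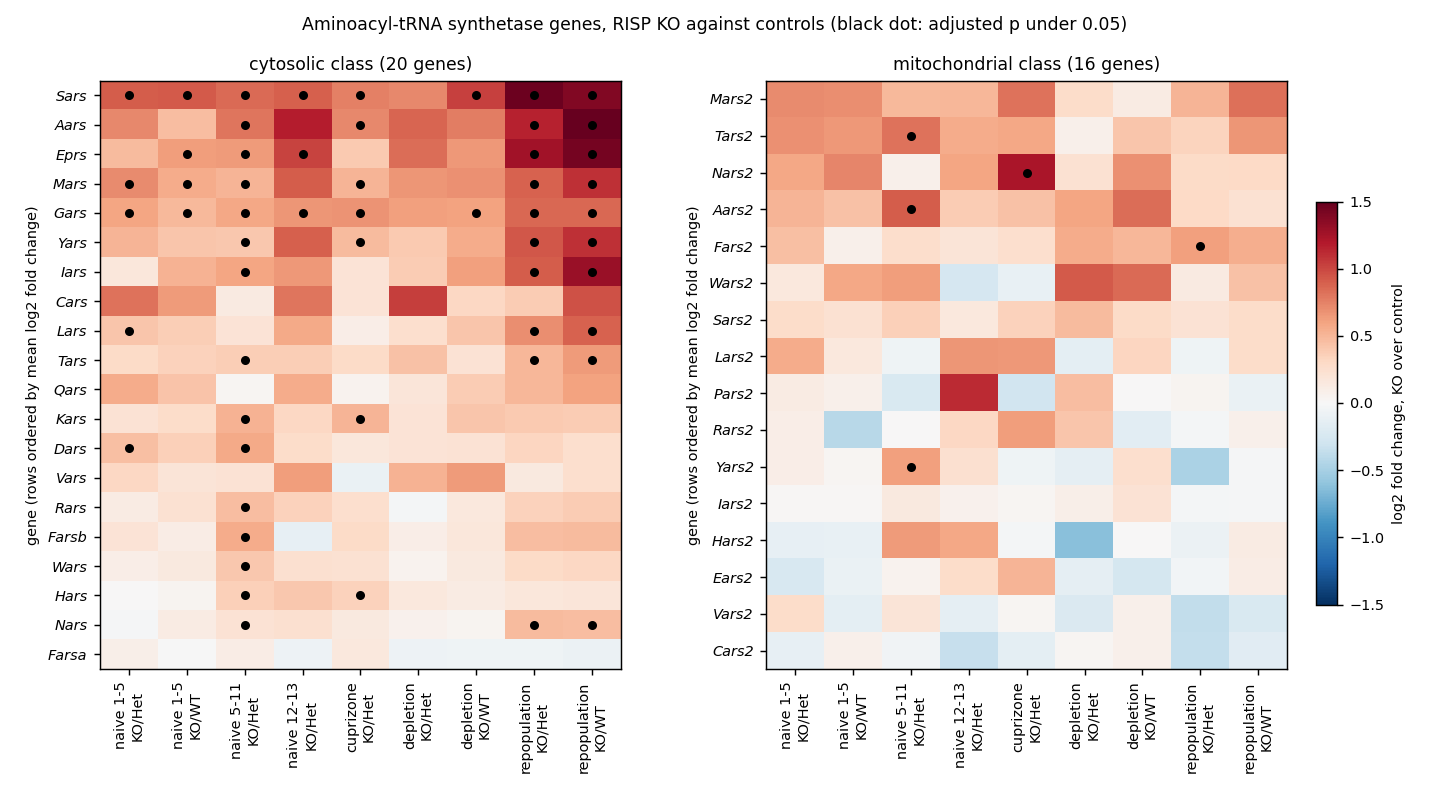
Log2 fold change of 20 cytosolic and 16 of the 17 mitochondrial synthetase genes (rows, ordered by their mean) in the 9 comparisons of KO with a control (columns), cytosolic class left and mitochondrial class right, with a black dot where the adjusted p was under 0.05. The cytosolic panel holds 56 dots and the mitochondrial panel 5, all on positive values; Sars and Gars carry 8 dots each.

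At repopulation 10 of 20 cytosolic members rose in KO against Het and 10 of 20 against WT, where 2.15% and 2.26% of all genes rose and 2.48% and 2.53% fell. The 10 were the same genes in both: Aars, Eprs, Gars, Iars, Lars, Mars, Nars, Sars, Tars and Yars. The median log2 fold change of the cytosolic class was 0.485 against Het and 0.619 against WT, and that of all genes tested was 0.00 in both. The mitochondrial medians were 0.042 and 0.128. Against Het that median was -0.043 without Het 1, -0.013 without KO 2, 0.028 without KO 3, 0.144 without Het 4 and 0.147 without Het 3, and against WT it was 0.203 without WT 2. Fars2 was the 1 mitochondrial member that rose against Het, and 0 of 17 rose against WT, where 3 had an unadjusted p under 0.05 and DESeq2 called 1. The 4 KO libraries lay above all Het libraries in 16 of 20 cytosolic and 2 of 17 mitochondrial genes, beside 8.77% of all genes, and above all WT libraries in 16 of 20 and 3 of 17, beside 8.55%. No member lay below all controls of either kind, as 7.09% of all genes did in each.

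In naive libraries 5-11, 15 of 20 cytosolic members and 3 of 17 mitochondrial members (Aars2, Tars2 and Yars2) rose in KO against Het, where 7.68% of all genes rose and 6.07% fell. The medians were 0.435 in the cytosolic class, 0.19 in the mitochondrial class and 0.00 over all genes. KO and Het libraries did not overlap in 3 cytosolic and 0 mitochondrial genes, all higher in KO, beside 0.967% of all genes that were higher and 1.35% that were lower. Fitted on the 13 compared libraries alone, 5 cytosolic and 0 mitochondrial members were called. Of all called genes 55.9% were higher in KO with TMM scaling and 45.2% with size factors. In the same comparison 5 of 6 genes that rise on tissue dissociation (Fos, Jun, Egr1, Hspa1a and Klf4, but not Hspa1b) were lower in KO, with a summed level of 609 to 1530 CPM in KO and 2440 to 6570 CPM in Het libraries. Their part in the result was not tested.

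In naive libraries 1-5, 5 of 20 cytosolic members (Sars, Gars, Mars, Lars and Dars) rose in KO against Het and 4 of 20 (Sars, Gars, Eprs and Mars) against WT, beside 1.48% and 1.15% of all genes that rose and 1.25% and 0.787% that fell. None of the 17 mitochondrial members was called in either, by edgeR or by DESeq2, and 4 and 3 of them had an unadjusted p under 0.05, all higher in KO. The cytosolic medians were 0.361 and 0.365 (0.409 and 0.443 without the KO 1 library that stood apart), the mitochondrial medians 0.273 and 0.082, and those of all genes 0.03 and 0.005. The mitochondrial median against Het was 0.14 without KO 4 and 0.414 without Het 1, and against WT it was 0.141 without KO 1, 0.225 without WT 2 and 0.134 without WT 3. All KO libraries lay above all Het libraries in 3 cytosolic and 1 mitochondrial genes, beside 4.94% of all genes, and above all WT libraries in 1 and 1, beside 1.48%. No member lay below all Het or all WT libraries, as 4.11% and 1.69% of all genes did. Without naive KO 1, 9 cytosolic members were called against Het and 7 against WT. Against Het, 2 were called without KO 2, and 3 without Het 2, 3 or 4 or without KO 3, 4 or 5. Fitted on the libraries compared alone, 3 cytosolic and 1 mitochondrial members were called against Het and 1 cytosolic member against WT.

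The other naive pair, libraries 12-13 with 2 KO and 2 Het, called Sars, Gars and Eprs of 20 cytosolic members and 0 of 17 mitochondrial members by edgeR, beside 0.348% of all genes that rose and 0.223% that fell. DESeq2 called 7 and 0. Without any one of the 4 libraries, 0 or 1 cytosolic member was called. No mitochondrial member had an unadjusted p under 0.05 there. The medians were 0.562 and 0.273, beside 0.011 over all genes. The 6 dissociation genes summed to 751 to 967 CPM in KO and 1430 to 1770 CPM in Het libraries there, with a median log2 fold change of -1.43 and 0 called, and their part was not tested. Of the cytosolic genes 18 had both KO libraries above both Het libraries, and of the mitochondrial genes 10, beside 23% of all genes; 2 mitochondrial genes had both KO libraries below, beside 21.3%.

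Under cuprizone 7 of 20 cytosolic members (Sars, Gars, Kars, Aars, Mars, Yars and Hars) and 1 of 17 mitochondrial members (Nars2) rose in KO against Het, where 8.16% of all genes rose and 5.83% fell. The class medians were 0.268 and 0.249, and the median of all genes was 0.024. The mitochondrial median was 0.085 without KO 6, 0.404 without Het 2 and 0.379 without Het 3. The 6 KO libraries lay above the 4 Het libraries in 5 cytosolic and 0 mitochondrial genes, beside 3.91% of all genes, and below them in none, beside 3.8%. The same 5 dissociation genes were lower in KO, at a summed level of 1080 to 8200 CPM in KO and 14600 to 24200 CPM in Het libraries, and their part was not tested here either. Without Het 2, without Het 4 or without KO 5, 3 cytosolic members were called, and 4 without KO 1 or without KO 4. Fitted on these 10 libraries alone, Sars and Gars were called. The share of all called genes that were higher in KO was 58.3% with TMM scaling and 42.8% with size factors, under which 4 cytosolic and 0 mitochondrial members were called.

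At depletion 0 of 20 cytosolic and 0 of 17 mitochondrial members were called by edgeR in KO against Het (2 and 2 libraries), where 0.217% of all genes rose and 0.293% fell. Among members, 7 cytosolic and 1 mitochondrial member had an unadjusted p under 0.05, all higher in KO, and DESeq2 called 3 and 0. Against the 4 WT libraries Sars and Gars were called, beside 1.09% of all genes that rose and 0.516% that fell, and 0 of 17 mitochondrial members (2 at an unadjusted p under 0.05, 1 by DESeq2). The cytosolic medians were 0.318 against Het and 0.396 against WT, the mitochondrial medians 0.083 and 0.212, and those of all genes 0.00. Against Het the cytosolic median was 0.154 without Het 2, and the mitochondrial median was 0.271 without Het 1, 0.195 without KO 1 and 0.146 without KO 2. The mitochondrial median against WT was 0.125 without WT 3. Both KO libraries lay above both Het libraries in 13 cytosolic and 5 mitochondrial genes, beside 19.2% of all genes, and above all 4 WT libraries in 10 and 3, beside 12.1%. Hars2 lay below both Het libraries, beside 16.4% of all genes, and no member lay below all WT libraries, beside 8.89%. Of all called genes 42.6% against Het and 67.9% against WT were higher in KO with TMM scaling, and 30.5% and 57.9% with size factors. Without KO 1 or without KO 2, 1 cytosolic member was called against WT, and without Het 1, 1 was called against Het.

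**Figure D2:**
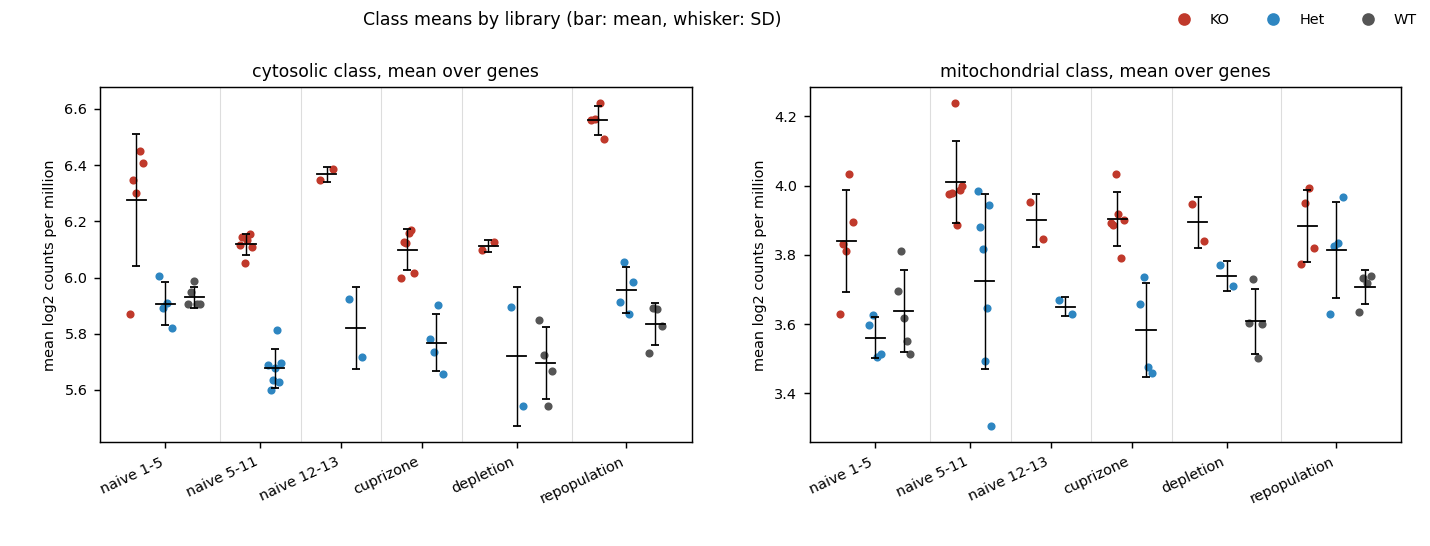
Mean log2 CPM over the 20 cytosolic genes (left) and the 17 mitochondrial genes (right) in each library, by setting and genotype, with KO left of its controls; each point is 1 library. Cytosolic means of KO libraries lie above those of every control library in each setting except for naive KO 1, at 5.87 log2 CPM; mitochondrial means of KO libraries overlap WT in naive 1-5 and Het in naive 5-11 and at repopulation, and lie above the controls in the other settings.

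Read per library, the mean log2 level of the 20 cytosolic genes was 6.49 to 6.62 in KO libraries at repopulation, against 5.87 to 6.06 in Het and 5.73 to 5.89 in WT. In naive libraries 5-11 it was 6.05 to 6.15 in KO, against 5.60 to 5.81 in Het, and in naive libraries 12-13 it was 6.35 to 6.38 in KO, against 5.72 to 5.92 in Het. Under cuprizone it was 6.0 to 6.17 in KO, against 5.66 to 5.90 in Het, and at depletion 6.10 to 6.13 in KO, against 5.54 to 5.89 in Het and 5.54 to 5.85 in WT. These ranges did not overlap. The mean of the 17 mitochondrial genes at repopulation was 3.77 to 3.99 in KO, against 3.63 to 3.97 in Het and 3.64 to 3.74 in WT, so KO overlapped Het there. In naive libraries 5-11 it was 3.89 to 4.24 in KO, against 3.31 to 3.98 in Het, which also overlapped. Among naive libraries 1-5 it was 3.63 to 4.03 in KO, against 3.51 to 3.62 in Het and 3.51 to 3.81 in WT, just above Het and mixed with WT. The mitochondrial mean of KO lay above all controls in the other 3 settings. It was 3.85 to 3.95 in KO, against 3.63 to 3.67 in Het in naive libraries 12-13, and 3.79 to 4.03 in KO, against 3.46 to 3.74 in Het under cuprizone. At depletion it was 3.84 to 3.95 in KO, against 3.71 to 3.77 in Het and 3.5 to 3.73 in WT. The mitochondrial means include Lars2, which varied widely in level between libraries, and none was taken without it.

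Sars (ENSMUSG00000068739, chr3:108424865-108445209, minus strand, GRCm38), which charges transfer RNA with serine, rose in 8 of the 9 comparisons. At repopulation Sars held 262, 228, 299 and 281 CPM in KO libraries, against 92.4, 102, 91.1 and 99.7 CPM in Het libraries and 88.2, 94.5, 127 and 99.9 CPM in WT libraries. Every KO value was more than any control value, and the gene was 2.77-fold higher against Het (log2 fold change 1.47 ± 0.15, adjusted p = 5.54e-10, edgeR) and 2.61-fold higher against WT (1.39 ± 0.15, adjusted p = 1.38e-09). At depletion Sars held 168 and 156 CPM in KO libraries, against 106 and 90.7 CPM in Het libraries and 78.6, 79.1, 80.1 and 81.3 CPM in WT libraries. The groups did not overlap, and the gene passed against WT (1.02 ± 0.17, adjusted p = 0.000226) but not against Het (0.72 ± 0.20, adjusted p = 0.0909). For Sars, naive libraries 1-5 held 85.6, 148, 164, 200.0 and 176 CPM in KO libraries, against 97.4, 70.4, 79 and 84.1 CPM in Het libraries and 77.8, 77.6, 87.3, 85.2 and 80.5 CPM in WT libraries. KO 1 lay inside the control range and KO 2-5 above it. The log2 fold change was 0.90 ± 0.14, adjusted p = 6.87e-05 against Het and 0.92 ± 0.13, adjusted p = 1.26e-05 against WT, and without KO 1 it was 1.04 and 1.07. For Sars, naive libraries 5-11 held 107 to 125 CPM (median 118) in KO libraries, against 50.2 to 82.4 CPM (median 62.5) in Het libraries. For Sars, naive libraries 12-13 held 147 and 163 CPM in KO libraries, against 85.8 and 80.3 CPM in Het libraries. Under cuprizone Sars held 113 to 150.4 CPM (median 132) in KO libraries, against 68.3, 73.3, 79.5 and 87.3 CPM in Het libraries. All KO libraries in these sets lay above all Het libraries, with log2 fold changes of 0.85 ± 0.11, 0.90 ± 0.20 and 0.76 ± 0.14 (adjusted p = 3.49e-07, 0.0211 and 5.58e-05).

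Gars (ENSMUSG00000029777, chr6:55038007-55079500, plus strand), the glycine enzyme of both compartments, also rose in 8 of 9 comparisons. Its repopulation values were 131, 126, 135 and 120.0 CPM in KO libraries, against 69.7, 71.4, 65.8 and 75.3 CPM in Het libraries and 64.5, 76.3, 67.5 and 72.7 CPM in WT libraries. KO lay above both controls, with the same log2 fold change of 0.86 ± 0.12 against Het and WT (adjusted p = 8.48e-07 and 7.12e-07). At depletion Gars held 81.3 and 85.9 CPM in KO libraries, against 59.7 and 49.6 CPM in Het libraries and 56.8, 58, 50.4 and 55.4 CPM in WT libraries. The ranges were apart, and the gene passed against WT (0.60 ± 0.14, adjusted p = 0.00979) and not against Het (0.61 ± 0.17, adjusted p = 0.0726). Among naive libraries 1-5 Gars held 64.1, 92.6, 97.8, 97.3 and 89.9 CPM in KO libraries, against 58.2, 62, 54.8 and 58.5 CPM in Het libraries and 60.1, 64.4, 70.0, 63 and 57.2 CPM in WT libraries. KO 1 stood just above the Het libraries and inside the WT range, and the other 4 stood above both, for a log2 fold change of 0.60 ± 0.11, adjusted p = 0.000588 against Het and 0.49 ± 0.10, adjusted p = 0.00517 against WT, and without KO 1 of 0.68 and 0.58. For Gars, naive libraries 5-11 held 92.6 to 122 CPM (median 99.3) in KO libraries, against 52 to 83.1 CPM (median 72.1) in Het libraries. For Gars, naive libraries 12-13 held 122 and 117 CPM in KO libraries, against 79.5 and 71.7 CPM in Het libraries. Under cuprizone Gars held 86.4 to 116 CPM (median 99.1) in KO libraries, against 54.8, 63.3, 68.1 and 66.1 CPM in Het libraries. KO and Het did not overlap in any of these 3 sets, and the log2 fold changes were 0.58 ± 0.09, 0.66 ± 0.17 and 0.67 ± 0.11 (adjusted p = 1.10e-05, 0.0432 and 1.30e-05).

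Aars (ENSMUSG00000031960, chr8:111033144-111057664, plus strand), the alanine enzyme, had the largest fold change of the class at repopulation against WT. It held 350.1, 430.0, 458 and 327 CPM in KO libraries, against 182, 186, 159 and 179 CPM in Het libraries and 126, 145, 171 and 98.2 CPM in WT libraries. KO was 2.9-fold higher than WT (log2 fold change 1.54 ± 0.24, adjusted p = 1.20e-05) and 2.22-fold higher than Het (1.15 ± 0.24, adjusted p = 0.00118), with no overlap. For Aars, naive libraries 5-11 held 180.4 to 238 CPM (median 195) in KO libraries, against 67 to 154 CPM (median 126) in Het libraries. Under cuprizone Aars held 169.6 to 309 CPM (median 208) in KO libraries, against 168, 92.4, 179.5 and 94 CPM in Het libraries. The lowest KO library stood above the highest Het library in the naive set but not under cuprizone, where Het spread widely; both comparisons passed (0.80 ± 0.19, adjusted p = 0.00204 and 0.73 ± 0.22, adjusted p = 0.0207). For Aars, naive libraries 1-5 held 163, 309, 302, 407 and 318 CPM in KO libraries, against 197, 197, 210.2 and 123 CPM in Het libraries and 201, 276, 235, 190.0 and 182 CPM in WT libraries. For Aars, naive libraries 12-13 held 331 and 326 CPM in KO libraries, against 169.6 and 121 CPM in Het libraries. At depletion Aars held 238 and 275 CPM in KO libraries, against 174 and 105 CPM in Het libraries and 122, 190.2, 159 and 132 CPM in WT libraries. In libraries 12-13 and at depletion KO did not overlap its controls, yet with 2 KO libraries each these did not pass (adjusted p = 0.0924 in naive 12-13, 0.334 against Het and 0.208 against WT at depletion), nor did naive libraries 1-5 (0.0742 and 0.368), where KO 1 was below every control but Het 4. Exons of Aars share 1326 bases, or 14.3%, with exons of Exosc6 on the same strand, so reads there cannot be told apart between the genes.

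Eprs (ENSMUSG00000026615, chr1:185363044-185428360, plus strand) encodes 1 protein with both glutamic acid and proline activities and passed in 5 comparisons. At repopulation Eprs held 202, 179, 182 and 171 CPM in KO libraries, against 68.1, 79.3, 81.4 and 76.8 CPM in Het libraries and 69.8, 71.7, 65 and 63.6 CPM in WT libraries. The KO libraries were 2.4-fold above Het and 2.71-fold above WT, with no overlap (log2 fold change 1.26 ± 0.16, adjusted p = 9.19e-08 against Het and 1.44 ± 0.16, adjusted p = 5.08e-09 against WT). For Eprs, naive libraries 12-13 held 287 and 290.5 CPM in KO libraries, against 164 and 121 CPM in Het libraries. For Eprs, naive libraries 5-11 held 159 to 258 CPM (median 217) in KO libraries, against 116 to 170.4 CPM (median 129.5) in Het libraries. Both passed (1.02 ± 0.22, adjusted p = 0.0138 and 0.64 ± 0.12, adjusted p = 0.000198), without overlap in libraries 12-13 and with overlap in libraries 5-11. For Eprs, naive libraries 1-5 held 64.7, 119, 109, 121 and 127 CPM in KO libraries, against 88.2, 69, 77.8 and 76.7 CPM in Het libraries and 60.4, 75.5, 81.8, 62.8 and 69.8 CPM in WT libraries. KO 1 was below every Het library and KO 2-5 above every control, and the gene passed against WT (0.63 ± 0.14, adjusted p = 0.00762) and not against Het (0.47 ± 0.15, adjusted p = 0.0739). Without KO 1 the log2 fold change against WT was 0.76. At depletion it held 115 and 108 CPM in KO libraries, against 74.8 and 50.0 CPM in Het libraries and 68.7, 81.7, 66.8 and 66.2 CPM in WT libraries. Under cuprizone Eprs held 165 to 264 CPM (median 221) in KO libraries, against 193, 152, 155 and 168 CPM in Het libraries. Neither passed (adjusted p = 0.0638 against Het and 0.0552 against WT at depletion, and 0.0608 under cuprizone), although KO did not overlap its controls at depletion.

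Mars (ENSMUSG00000040354, chr10:127296221-127311786, minus strand), which charges both initiator and elongator transfer RNA with methionine, passed in 6 comparisons. Its repopulation values were 148, 189, 186 and 141 CPM in KO libraries, against 76.5, 103, 89.1 and 90.8 CPM in Het libraries and 61.1, 90.9, 73.1 and 85.2 CPM in WT libraries. No control library reached the lowest KO library, and the log2 fold change was 0.89 ± 0.18, adjusted p = 0.000824 against Het and 1.10 ± 0.18, adjusted p = 2.90e-05 against WT. For Mars, naive libraries 1-5 held 87.8, 169.7, 126, 126 and 141 CPM in KO libraries, against 97.2, 73.8, 75.8 and 72.6 CPM in Het libraries and 97.7, 74.4, 97.7, 82.6 and 88.3 CPM in WT libraries. KO 1 was among the controls, KO 2-5 were above them, and the gene passed against Het (0.70 ± 0.17, adjusted p = 0.00987) and WT (0.56 ± 0.16, adjusted p = 0.0487), and the call against WT was made in 1 of 10 fits that left out a library. Without KO 1 the log2 fold change was 0.80 and 0.67. For Mars, naive libraries 5-11 held 64.6 to 77 CPM (median 72.8) in KO libraries, against 31.2 to 71.7 CPM (median 51.4) in Het libraries. Under cuprizone Mars held 64.5 to 117 CPM (median 86.9) in KO libraries, against 55.1, 58.4, 77.9 and 59.7 CPM in Het libraries. KO and Het overlapped in both, and both passed (0.51 ± 0.14, adjusted p = 0.0101 and 0.51 ± 0.17, adjusted p = 0.0374). For Mars, naive libraries 12-13 held 114 and 115 CPM in KO libraries, against 72.2 and 49.9 CPM in Het libraries. At depletion Mars held 93.5 and 104 CPM in KO libraries, against 66.2 and 58.3 CPM in Het libraries and 68.8, 70.1, 52.3 and 55.3 CPM in WT libraries. There KO lay above all controls but the comparisons did not pass (adjusted p = 0.0802, and 0.334 and 0.105 against Het and WT). Exons of Mars overlap those of Ddit3, a transcription factor gene on the opposite strand, by 68 bases or 1.99%, and how strand was used in counting is not given in the sources used here. Ddit3 was lower in KO in naive libraries 5-11 (-0.54 ± 0.17, adjusted p = 0.0259) and under cuprizone (-1.04 ± 0.19, adjusted p = 9.79e-05), where Mars was higher. Elsewhere Ddit3 went the same way as Mars without being called, at 0.40 ± 0.19 in naive 1-5 against WT and 0.62 ± 0.30 in naive 12-13. At depletion it was at 0.35 ± 0.30 against Het and 0.39 ± 0.26 against WT. The part of the shared bases in the Mars level was not tested.

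Yars (ENSMUSG00000028811, chr4:129189760-129219607, plus strand), the tyrosine enzyme, passed in 4 comparisons. At repopulation Yars held 127, 108, 120.4 and 110.3 CPM in KO libraries, against 63.2, 79.1, 53.2 and 47.6 CPM in Het libraries and 38.8, 61.5, 67.3 and 49.9 CPM in WT libraries. The groups did not overlap (log2 fold change 0.94 ± 0.17, adjusted p = 0.000238 against Het and 1.10 ± 0.17, adjusted p = 1.39e-05 against WT). Under cuprizone it held 58.8 to 72.2 CPM (median 70.3) in KO libraries, against 45.7, 51.5, 56.8 and 42.8 CPM in Het libraries, where KO stood above Het in every library. For Yars, naive libraries 5-11 held 52.5 to 81.8 CPM (median 69.5) in KO libraries, against 36.8 to 71.3 CPM (median 55.1) in Het libraries, where the groups overlapped. These passed narrowly (0.48 ± 0.17, adjusted p = 0.0435 and 0.40 ± 0.14, adjusted p = 0.0399), and neither passed with size factors in place of TMM. For Yars, naive libraries 1-5 held 66.1, 117, 112, 106 and 95.6 CPM in KO libraries, against 68.2, 70.7, 65.8 and 73.2 CPM in Het libraries and 79.3, 75, 83.4, 64.6 and 69.4 CPM in WT libraries. KO 2-5 were above all controls and KO 1 below most of them, and neither comparison passed (adjusted p = 0.0804 and 0.204). For Yars, naive libraries 12-13 held 68.8 and 76.8 CPM in KO libraries, against 41.3 and 36.7 CPM in Het libraries. At depletion Yars held 67 and 68.3 CPM in KO libraries, against 59.5 and 43.1 CPM in Het libraries and 60.0, 36.8, 33.5 and 54.1 CPM in WT libraries, without overlap and without passing (adjusted p = 0.0716, and 0.67 and 0.226).

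**Figure D3:**
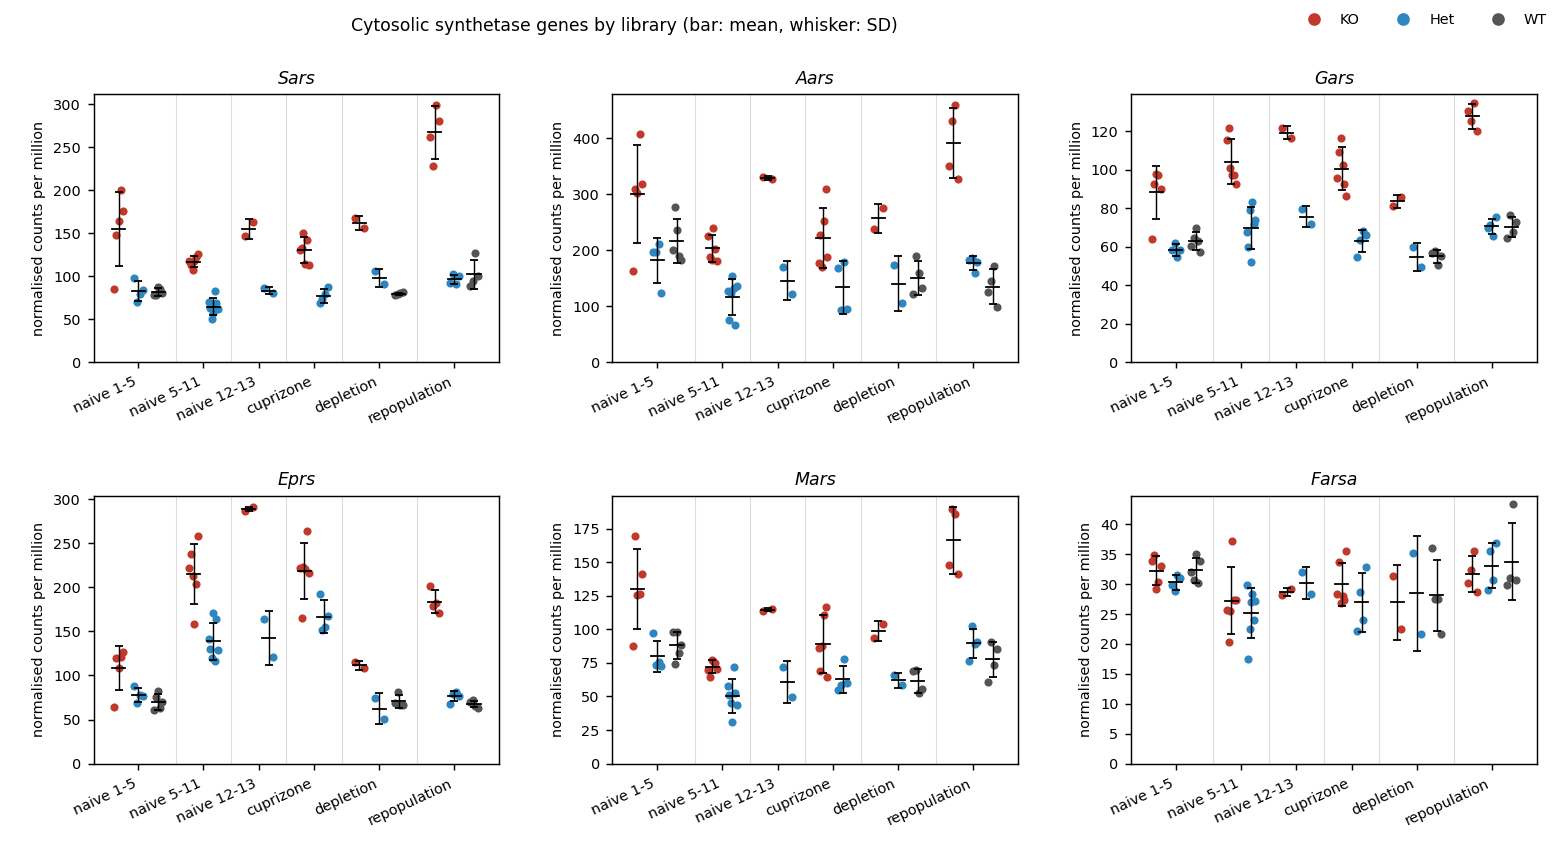
Level in CPM (TMM-scaled, linear axis from 0) of Sars, Aars, Gars, Eprs, Mars and Farsa in each library, by setting, with KO left of Het and WT; each point is 1 library and each bar a group mean. KO libraries at repopulation stand above all controls in the first 5 genes and among them in Farsa.

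Iars, Lars, Tars and Nars, the isoleucine, leucine, threonine and asparagine enzymes, were each called in 3 comparisons, 2 of them at repopulation. Iars (ENSMUSG00000037851, chr13:49682100-49734267, plus strand) at repopulation held 133, 148, 143 and 176 CPM in KO libraries, against 78.6, 76.4, 71.3 and 94 CPM in Het libraries and 62.4, 60.8, 45 and 76.1 CPM in WT libraries. All KO libraries lay above all controls (0.91 ± 0.24, adjusted p = 0.0145 against Het and 1.30 ± 0.24, adjusted p = 0.000235 against WT). For Iars, naive libraries 5-11 held 116 to 184 CPM (median 147) in KO libraries, against 58.1 to 120.5 CPM (median 96.5) in Het libraries, which overlapped and passed (0.60 ± 0.19, adjusted p = 0.0244). Lars (ENSMUSG00000024493, chr18:42202298-42262194, minus strand) at repopulation held 63, 66.9, 67.3 and 57.9 CPM in KO libraries, against 38.4, 39.9, 36.5 and 42.7 CPM in Het libraries and 30.7, 33.8, 35.4 and 38.3 CPM in WT libraries. These were again apart (0.70 ± 0.13, adjusted p = 0.000229 against Het and 0.89 ± 0.13, adjusted p = 2.52e-06 against WT). For Lars, naive libraries 1-5 held 35.4, 53.2, 51.8, 57.2 and 59.2 CPM in KO libraries, against 41.1, 40.5, 35.1 and 37.1 CPM in Het libraries and 42.5, 45.6, 41.4, 37.6 and 32.1 CPM in WT libraries. KO 1 was among the controls, and the gene passed narrowly against Het (0.42 ± 0.12, adjusted p = 0.0462) and was called in 1 of 9 fits that left out a library. Tars (ENSMUSG00000022241, chr15:11382301-11399665, minus strand) at repopulation held 56.3, 55.5, 57.6 and 55.3 CPM in KO libraries, against 39.5, 46.3, 35.2 and 38.1 CPM in Het libraries and 35.3, 33.6, 35.9 and 40.0 CPM in WT libraries. The KO range was narrow and above every control (0.50 ± 0.12, adjusted p = 0.00677 against Het and 0.63 ± 0.12, adjusted p = 0.000354 against WT). For Tars, naive libraries 5-11 held 54 to 70.2 CPM (median 66.2) in KO libraries, against 41.5 to 58.9 CPM (median 49) in Het libraries, overlapping and called (0.37 ± 0.10, adjusted p = 0.00572). Nars (ENSMUSG00000024587, chr18:64499647-64516652, minus strand) at repopulation held 265, 269.5, 301 and 278 CPM in KO libraries, against 190.4, 208, 191 and 213 CPM in Het libraries and 191, 200.2, 202 and 212 CPM in WT libraries. The class member with the highest level per kilobase was thus also higher in KO (0.47 ± 0.10, adjusted p = 0.000737 against Het and 0.47 ± 0.10, adjusted p = 0.000834 against WT). For Nars, naive libraries 5-11 held 152 to 176 CPM (median 169.7) in KO libraries, against 123 to 166 CPM (median 141) in Het libraries. This small difference passed narrowly (0.22 ± 0.07, adjusted p = 0.0432) and was called in 5 of 13 fits that left out a library.

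In the remaining settings these 4 genes were not called. For Iars, naive libraries 1-5 held 71.6, 106, 139, 123 and 133 CPM in KO libraries, against 104, 108, 106 and 89.5 CPM in Het libraries and 66.1, 91.2, 61.4, 72.2 and 108 CPM in WT libraries. For Iars, naive libraries 12-13 held 119.9 and 132 CPM in KO libraries, against 107 and 53.4 CPM in Het libraries. KO overlapped both controls in the first of these sets and stood above Het in the second. Under cuprizone Iars held 57.1 to 115 CPM (median 88.1) in KO libraries, against 109, 70.5, 72.6 and 51.7 CPM in Het libraries. At depletion it held 82.9 and 95.5 CPM in KO libraries, against 63.2 and 74 CPM in Het libraries and 90.0, 58.7, 36.7 and 47.8 CPM in WT libraries. KO overlapped Het under cuprizone, and at depletion stood above Het but not WT. For Lars, naive libraries 5-11 held 62.5 to 79.1 CPM (median 70.7) in KO libraries, against 48.4 to 69.8 CPM (median 63.8) in Het libraries. For Lars, naive libraries 12-13 held 68.8 and 77.5 CPM in KO libraries, against 53.1 and 46 CPM in Het libraries. KO overlapped Het in the first of these sets and stood above it in the second. Under cuprizone Lars held 58.6 to 86.2 CPM (median 67.8) in KO libraries, against 58.9, 79.6, 64.9 and 53.8 CPM in Het libraries. At depletion Lars held 44.3 and 48.1 CPM in KO libraries, against 43.5 and 33.7 CPM in Het libraries and 34.1, 36.5, 33 and 34.6 CPM in WT libraries. KO overlapped Het under cuprizone and was above all controls at depletion. For Tars, naive libraries 1-5 held 39.2, 54, 51.9, 56.9 and 60.9 CPM in KO libraries, against 47.8, 39.9, 42.3 and 41.7 CPM in Het libraries and 41.9, 40.4, 38.6, 43.4 and 43.2 CPM in WT libraries. For Tars, naive libraries 12-13 held 76.8 and 81.3 CPM in KO libraries, against 65.8 and 56.4 CPM in Het libraries. KO 1 lay below all controls but WT 3 in the first of these sets, and both KO libraries lay above Het in the second. Under cuprizone Tars held 55.7 to 79 CPM (median 65.8) in KO libraries, against 60.1, 48.7, 56.8 and 53.3 CPM in Het libraries. At depletion Tars held 47 and 38.4 CPM in KO libraries, against 37.5 and 25.4 CPM in Het libraries and 39.6, 41.9, 33.4 and 31.9 CPM in WT libraries. KO overlapped Het under cuprizone, and at depletion was above Het and mixed with WT. For Nars, naive libraries 1-5 held 207, 239.5, 247, 229.5 and 276 CPM in KO libraries, against 253, 247, 238 and 231 CPM in Het libraries and 213, 197, 213, 222 and 260.5 CPM in WT libraries. For Nars, naive libraries 12-13 held 209 and 222 CPM in KO libraries, against 184 and 180.0 CPM in Het libraries. The groups were mixed in the first of these sets and apart in the second. Under cuprizone Nars held 149 to 187 CPM (median 164) in KO libraries, against 144, 134, 169.5 and 156 CPM in Het libraries. At depletion Nars held 228 and 220.2 CPM in KO libraries, against 235 and 194 CPM in Het libraries and 244, 209, 216 and 203 CPM in WT libraries. KO overlapped its controls in both.

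Dars, Kars and Hars, for aspartic acid, lysine and histidine, were each called in 2 comparisons, and none of the 3 at repopulation. Dars (ENSMUSG00000026356, chr1:128363707-128417368, minus strand) in naive libraries 1-5 held 69.8, 78.6, 77.3, 68.6 and 72.5 CPM in KO libraries, against 58.5, 56.6, 52.9 and 46.3 CPM in Het libraries and 55.5, 55.9, 52.9, 60.5 and 60.5 CPM in WT libraries. All KO libraries, KO 1 included, were above all Het and WT libraries, and the gene passed against Het (0.45 ± 0.13, adjusted p = 0.0335) but not WT (0.36 ± 0.12, adjusted p = 0.117). For Dars, naive libraries 5-11 held 55.5 to 77.3 CPM (median 64.5) in KO libraries, against 30.4 to 55.9 CPM (median 43.5) in Het libraries (0.57 ± 0.11, adjusted p = 0.000136). At repopulation Dars held 82, 73.5, 72.3 and 65 CPM in KO libraries, against 59.6, 54.8, 56.4 and 64.1 CPM in Het libraries and 64.7, 62.6, 59.8 and 58.9 CPM in WT libraries, where KO stood above all controls and did not pass (adjusted p = 0.188 and 0.343). Kars (ENSMUSG00000031948, chr8:111993443-112011323, minus strand), which serves both compartments, held 39.4 to 58.6 CPM (median 45.8) in KO libraries, against 27.4 to 40.5 CPM (median 29.9) in Het libraries in naive libraries 5-11. Under cuprizone Kars held 38.3 to 53.3 CPM (median 46.6) in KO libraries, against 29.5, 25.9, 36.2 and 36.7 CPM in Het libraries. It passed in both (0.52 ± 0.10, adjusted p = 0.000205 and 0.51 ± 0.12, adjusted p = 0.00239), and the cuprizone groups did not overlap. Kars at repopulation held 71.5, 66.2, 63.7 and 61.6 CPM in KO libraries, against 49.3, 49, 50.5 and 51.8 CPM in Het libraries and 55.3, 46.4, 46.7 and 53.5 CPM in WT libraries, also without overlap, and did not pass (adjusted p = 0.0585 and 0.0669). Hars (ENSMUSG00000001380, chr18:36766528-36783205, minus strand) held 22.4 to 37 CPM (median 33.2) in KO libraries, against 19.7 to 31.9 CPM (median 23.6) in Het libraries in naive libraries 5-11. Under cuprizone Hars held 28.6 to 32.6 CPM (median 30.2) in KO libraries, against 28.3, 20.3, 25.1 and 21.7 CPM in Het libraries. Both passed (0.36 ± 0.10, adjusted p = 0.00933 and 0.35 ± 0.12, adjusted p = 0.0458), the second by a narrow margin; it was called there in 1 of 10 fits that left out a library. Hars and Hars2 lie head to head and share 195 exon bases, 7.97% of Hars.

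Elsewhere these 3 genes were not called. For Dars, naive libraries 12-13 held 65.7 and 77.5 CPM in KO libraries, against 54.8 and 63.2 CPM in Het libraries, where KO was above Het. Under cuprizone Dars held 43.5 to 65.2 CPM (median 48.2) in KO libraries, against 38, 41.2, 61.8 and 37.8 CPM in Het libraries. At depletion Dars held 64.2 and 54.2 CPM in KO libraries, against 56.8 and 46 CPM in Het libraries and 51.3, 55, 47.9 and 49.1 CPM in WT libraries. KO overlapped its controls in both. For Kars, naive libraries 1-5 held 52.3, 60.1, 60.0, 61.6 and 62.8 CPM in KO libraries, against 54.8, 50.6, 50.8 and 48.8 CPM in Het libraries and 48.5, 53.4, 52, 48.2 and 44.1 CPM in WT libraries, where KO overlapped both controls. For Kars, naive libraries 12-13 held 53.2 and 52.5 CPM in KO libraries, against 47.5 and 37.9 CPM in Het libraries. At depletion Kars held 67 and 64.7 CPM in KO libraries, against 66.1 and 47.7 CPM in Het libraries and 56.2, 51.3, 45 and 44.7 CPM in WT libraries. KO was above Het in naive 12-13 and above WT, but not Het, at depletion. For Hars, naive libraries 1-5 held 31.8, 36.6, 31.5, 37.8 and 34.9 CPM in KO libraries, against 30.4, 35, 32.4 and 39.4 CPM in Het libraries and 34, 31.6, 34.5, 34.7 and 32.5 CPM in WT libraries, with log2 fold changes of 0.01 ± 0.12 and 0.04 ± 0.11. For Hars, naive libraries 12-13 held 36.3 and 38.7 CPM in KO libraries, against 30.7 and 25.9 CPM in Het libraries. At depletion Hars held 33.4 and 32.9 CPM in KO libraries, against 31.2 and 28.2 CPM in Het libraries and 32.2, 28.2, 29.8 and 31.2 CPM in WT libraries. KO was above every control in those 2 sets. At repopulation Hars held 39.1, 37.6, 35.6 and 33.1 CPM in KO libraries, against 28.4, 32.7, 33.9 and 33.7 CPM in Het libraries and 31.4, 32.5, 30.1 and 33.8 CPM in WT libraries, and KO overlapped both controls.

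Rars, Farsb and Wars, for arginine, phenylalanine and tryptophan, were each called once, in naive libraries 5-11 (0.46 ± 0.11, adjusted p = 0.00242; 0.56 ± 0.17, adjusted p = 0.0198; 0.41 ± 0.13, adjusted p = 0.0314). Cars, Vars, Qars and Farsa were called in none of the 9. These 4 were not alike. Cars, the cysteine enzyme, had log2 fold changes of up to 1.04 ± 0.47 (depletion against Het) with wide errors, and its KO libraries at repopulation held 27.1, 42.2, 58.7 and 39.2 CPM, against 31.7, 40.9, 29.6 and 25.9 CPM in Het and 16.2, 31.4, 23.2 and 15.6 CPM in WT. Qars, the glutamine enzyme, at repopulation held 92.5, 116, 101 and 109 CPM in KO libraries, against 70.3, 84.7, 60.2 and 81.4 CPM in Het libraries and 69.4, 67.5, 66.4 and 72.5 CPM in WT libraries, with no overlap and an adjusted p of 0.305 and 0.183. Farsa, whose protein pairs with that of Farsb to form the phenylalanine enzyme, at repopulation held 30.2, 32.4, 35.5 and 28.7 CPM in KO libraries, against 29, 35.6, 30.7 and 36.9 CPM in Het libraries and 29.9, 31, 43.4 and 30.7 CPM in WT libraries. Its groups overlapped throughout, and its log2 fold change was -0.06 ± 0.16 against Het and -0.09 ± 0.16 against WT, the lowest of the cytosolic class in that comparison. The partner subunit Farsb was at 0.46 ± 0.21 and 0.48 ± 0.21 in the same libraries. Exons of Farsb overlap those of Sgpp2 on the opposite strand by 248 bases.

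Calls fell both inside and outside the multi-synthetase complex, a split made after the values were seen. At repopulation 4 of 8 cytosolic members of the complex (Eprs, Iars, Lars and Mars) and 6 of 12 outside it rose against WT, with median log2 fold changes of 0.745 and 0.555. In naive libraries 5-11 it was 6 of 8 and 9 of 12, with medians of 0.516 and 0.383, and under cuprizone 2 of 8 and 5 of 12, with medians of 0.228 and 0.289. The scaffold genes Aimp1, Aimp2 and Eef1e1 were called once in 9 comparisons, Eef1e1 in naive libraries 5-11 (0.74 ± 0.25, adjusted p = 0.0352). Their summed level at repopulation was 69.9 to 85.4 CPM in KO, against 54.0 to 60.7 CPM in Het libraries and 51.2 to 53.6 CPM in WT libraries, without overlap, with Aimp1 at 0.68 ± 0.25 against WT (adjusted p = 0.116). The sum was also apart in naive 1-5, at 50 to 61.9 CPM in KO, 39 to 41.7 in Het and 39.8 to 44.9 in WT. It was apart in naive 12-13 (59.1 to 59.4 CPM in KO, 38.2 to 49.4 in Het). At depletion it was 56.6 to 57.6 CPM in KO, 45.3 to 45.9 in Het and 35.1 to 50.1 in WT. KO and Het overlapped in naive 5-11 and under cuprizone.

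Among mitochondrial members no gene was called in more than 1 comparison. Aars2 (ENSMUSG00000023938, chr17:45506841-45520843, plus strand), the mitochondrial alanine enzyme, in naive libraries 5-11 held 6.89 to 13.4 CPM (median 11) in KO libraries, against 2.69 to 7.65 CPM (median 5.89) in Het libraries. The groups overlapped slightly and KO was 1.88-fold higher (0.91 ± 0.18, adjusted p = 0.000357), beside 0.80 ± 0.19 for Aars in the same libraries. At repopulation Aars2 held 10.8, 14.8, 9.69 and 13.7 CPM in KO libraries, against 8.42, 13.3, 8.17 and 9.96 CPM in Het libraries and 11.5, 11.6, 9.27 and 9.28 CPM in WT libraries. Here KO and controls were mixed, at 0.29 ± 0.23 against Het and 0.23 ± 0.23 against WT, while Aars was at 1.15 ± 0.24 and 1.54 ± 0.24. For Aars2, naive libraries 1-5 held 8.95, 10.7, 11.8, 12.6 and 16.6 CPM in KO libraries, against 7.63, 7.45, 10.4 and 8.63 CPM in Het libraries and 6.74, 9.17, 8.68, 9.02 and 11.1 CPM in WT libraries. For Aars2, naive libraries 12-13 held 8.34 and 9.78 CPM in KO libraries, against 8.6 and 5.34 CPM in Het libraries. The groups overlapped in both. At depletion Aars2 held 13.6 and 14.4 CPM in KO libraries, against 9.39 and 9.08 CPM in Het libraries and 9.39, 6.22, 8.18 and 7.37 CPM in WT libraries. Under cuprizone Aars2 held 10.5 to 11.4 CPM (median 11) in KO libraries, against 5.01, 11.6, 7.13 and 8.83 CPM in Het libraries. KO stood above all controls at depletion and overlapped Het under cuprizone. None of these passed, with log2 fold changes of 0.38 to 0.84.

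Tars2 (ENSMUSG00000028107, chr3:95739976-95760206, minus strand), the mitochondrial threonine enzyme, in naive libraries 5-11 held 22.6 to 65.8 CPM (median 41.2) in KO libraries, against 15.2 to 36.7 CPM (median 25.2) in Het libraries and passed with an overlap (0.81 ± 0.20, adjusted p = 0.00465). For Tars2, naive libraries 1-5 held 25.6, 36.7, 25.7, 34.7 and 37.6 CPM in KO libraries, against 20.4, 21.2, 19.6 and 18.4 CPM in Het libraries and 21.7, 17.4, 23.5, 19 and 20.2 CPM in WT libraries. Every KO library, KO 1 included, lay above every control, and the gene did not pass (adjusted p = 0.144 and 0.171). At repopulation it held 31.6, 30.1, 39.7 and 28.3 CPM in KO libraries, against 21.5, 26, 23.9 and 31.5 CPM in Het libraries and 20.8, 18.1, 19.9 and 23.4 CPM in WT libraries, above all WT libraries and mixed with Het (0.33 ± 0.26 and 0.66 ± 0.26). For Tars2, naive libraries 12-13 held 33.4 and 29.6 CPM in KO libraries, against 21.4 and 21.4 CPM in Het libraries. At depletion Tars2 held 34.5 and 26.7 CPM in KO libraries, against 32 and 25.9 CPM in Het libraries and 31.5, 16.3, 21.1 and 22.7 CPM in WT libraries. Under cuprizone Tars2 held 26.9 to 59.9 CPM (median 35.7) in KO libraries, against 31.8, 40.9, 16.1 and 16.3 CPM in Het libraries. None of these passed, and KO stood apart in naive 12-13 alone.

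Fars2 (ENSMUSG00000021420, chr13:36117412-36726280, plus strand), the mitochondrial phenylalanine enzyme, at repopulation held 21.8, 20.7, 22.3 and 21.4 CPM in KO libraries, against 15.1, 12.1, 14.2 and 14.6 CPM in Het libraries and 13.8, 13, 17.3 and 14.8 CPM in WT libraries. KO was above every control, passed against Het (0.62 ± 0.19, adjusted p = 0.0394) and did not against WT (0.55 ± 0.19, adjusted p = 0.0809), and no fit that left out 1 of these 8 libraries called it. At depletion Fars2 held 19.6 and 21.5 CPM in KO libraries, against 13.5 and 14.3 CPM in Het libraries and 12.4, 14.8, 14.5 and 16.7 CPM in WT libraries, again with KO above and no call (adjusted p = 0.493 and 0.382). For Fars2, naive libraries 12-13 held 10.2 and 11.5 CPM in KO libraries, against 10.2 and 8.75 CPM in Het libraries, barely apart and not called. For Fars2, naive libraries 1-5 held 11.2, 12.6, 16.2, 14.2 and 15.7 CPM in KO libraries, against 9.51, 12.4, 7.84 and 11.1 CPM in Het libraries and 15.3, 12, 15.2, 12 and 11.7 CPM in WT libraries. For Fars2, naive libraries 5-11 held 10.0 to 15.1 CPM (median 12.9) in KO libraries, against 8.77 to 12.8 CPM (median 10.6) in Het libraries. Under cuprizone Fars2 held 6.87 to 17.1 CPM (median 10.3) in KO libraries, against 11.5, 8.74, 7.66 and 9.9 CPM in Het libraries. KO and controls overlapped in these 3 sets. Exons of Fars2 overlap those of Nrn1 on the opposite strand by 501 bases, 8.72% of its length.

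Yars2 (ENSMUSG00000022792, chr16:16302965-16309640, plus strand), the mitochondrial tyrosine enzyme, in naive libraries 5-11 held 8.6 to 11.4 CPM (median 9.67) in KO libraries, against 3.53 to 12.9 CPM (median 5.25) in Het libraries and passed (0.62 ± 0.21, adjusted p = 0.0369); it was called in 4 of 13 fits that left out a library. At repopulation Yars2 held 11.6, 13.4, 12.8 and 10.4 CPM in KO libraries, against 12.5, 14.2, 20.6 and 19.9 CPM in Het libraries and 11.2, 12, 12.3 and 13.5 CPM in WT libraries, where KO was not higher (-0.48 ± 0.26 and -0.02 ± 0.26) and the cytosolic Yars was. For Yars2, naive libraries 1-5 held 11.3, 13.1, 12.3, 10.9 and 10.5 CPM in KO libraries, against 12.6, 13, 10.2 and 7.46 CPM in Het libraries and 10.2, 13.6, 10.3, 11.1 and 11.6 CPM in WT libraries. For Yars2, naive libraries 12-13 held 9.01 and 8.76 CPM in KO libraries, against 7.18 and 7.88 CPM in Het libraries. KO stood above Het in the second of these and was mixed in the first. At depletion Yars2 held 12.5 and 9.57 CPM in KO libraries, against 14.7 and 9.38 CPM in Het libraries and 11.2, 7.95, 8.98 and 9.03 CPM in WT libraries. Under cuprizone Yars2 held 7.16 to 13.5 CPM (median 9.33) in KO libraries, against 18.9, 6.55, 6.07 and 11 CPM in Het libraries. None of those passed, and the last 2 overlapped. Nars2 was the cuprizone call (1.22 ± 0.43, adjusted p = 0.0487), with 5.51 to 15.5 CPM (median 9.17) in KO libraries, against 7.95, 2.5, 2.9 and 2.94 CPM in Het libraries, and Het 1 lay inside the KO range. It was called in 4 of 10 fits that left out a library, and no mitochondrial member was called without Het 3, Het 4, KO 2, KO 3 or KO 6.

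The other 12 mitochondrial members were called in no comparison. Iars2, for isoleucine, was a mitochondrial gene measured about as precisely as the cytosolic ones, with standard errors of 0.097 to 0.175, and its log2 fold changes ran from -0.03 to 0.21. At repopulation Iars2 ranged over 42.3 to 57.8 CPM in KO libraries, against 48.9 to 62 CPM in Het libraries and 48.8 to 55.8 CPM in WT libraries, while Iars rose in the same libraries. Exons of Iars2 share 2034 bases, or 22.9%, with Rab3gap2 on the opposite strand. Mars2, for methionine, was positive in all 9 comparisons, from 0.12 ± 0.44 at depletion against WT to 0.83 ± 0.36 at repopulation against WT, and did not pass in any. At repopulation Mars2 ranged over 6.63 to 9.29 CPM in KO libraries, against 4.74 to 6.11 CPM in Het libraries and 3.25 to 5.35 CPM in WT libraries, with KO above the controls. Cars2 and Vars2 had the lowest values at repopulation against Het apart from Yars2 (-0.36 ± 0.25 and -0.36 ± 0.34, neither passing).

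Lars2, for leucine, differed in level between the library sets. It ranged over 64.8 to 317 CPM in the 34 ncRNA-poor libraries, 376 to 1120 in the 10 shallow ones, 596 to 1980 in the 13 of middle depth and 1240 to 8440 in the 7 deep ones, where Gm26917 and Yam1 held a share of counts of 0.0688 to 0.276%, 2.22 to 6.7%, 3.59 to 5.8% and 4.2 to 13.6%. Both were lowest in the ncRNA-poor and highest in the deep libraries, and the part of the share in the Lars2 level was not tested. Lars2 was not called in any comparison, at 0.66 ± 0.47 in naive 12-13 and 0.65 ± 0.31 under cuprizone. In naive 12-13 it held 4642 and 1245 CPM in KO libraries, against 1518 and 2203 CPM in Het libraries, so the groups overlapped. Outside the ncRNA-poor set most of a sum over the mitochondrial class would be Lars2. Medians, means of log2 levels and single genes are given instead, and the means include Lars2.

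**Figure D4:**
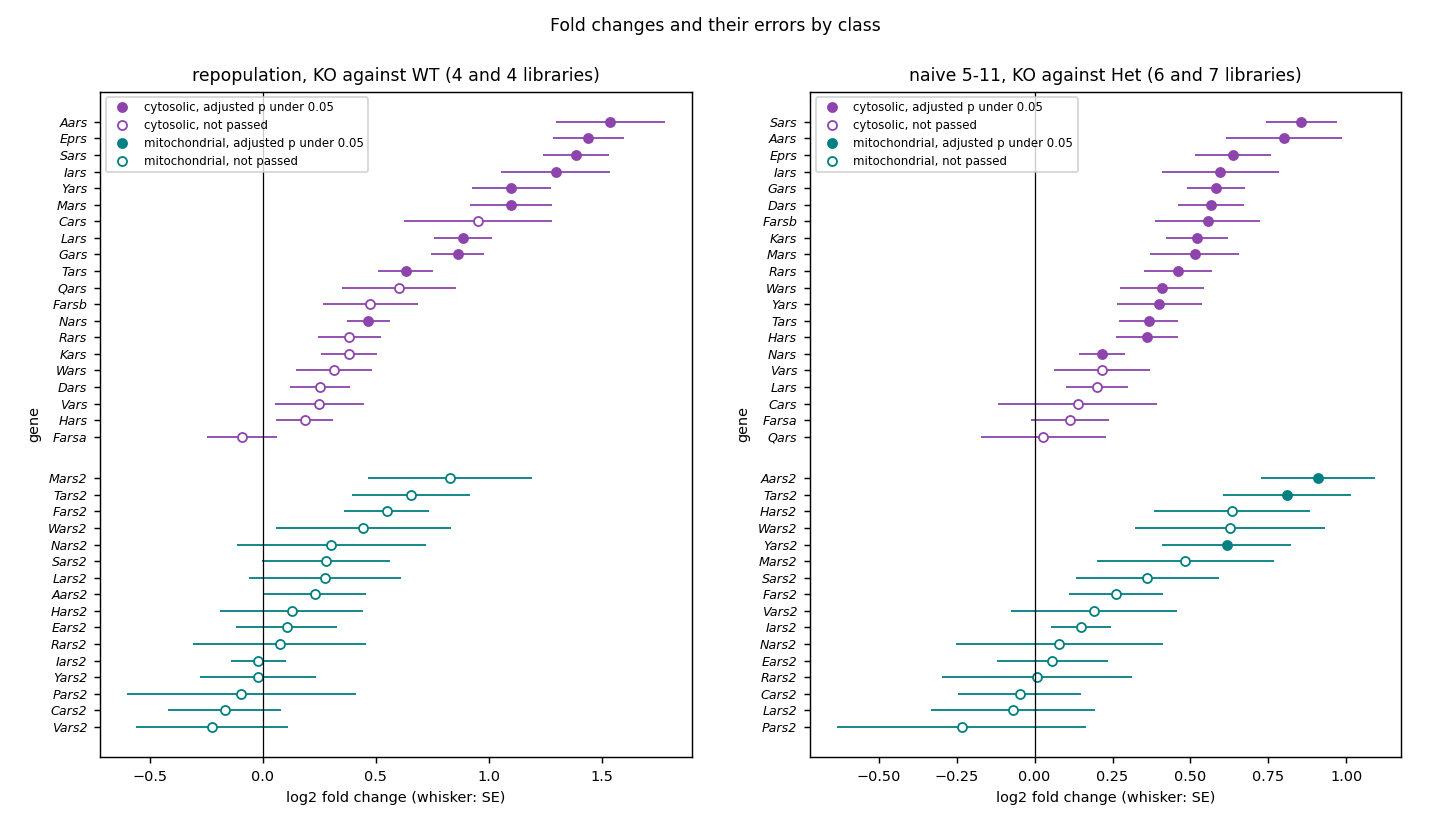
Log2 fold change of 20 cytosolic and 16 of the 17 mitochondrial members with the standard error (whisker), ordered within class, at repopulation against WT (left, 4 KO and 4 WT libraries) and in naive libraries 5-11 against Het (right, 6 KO and 7 Het libraries); filled points passed at an adjusted p under 0.05. The median standard error is 0.25 to 0.32 for mitochondrial and 0.12 to 0.16 for cytosolic members, and the 10 filled points on the left are all cytosolic.

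Whether the KO effect differed between settings was tested directly. Cuprizone libraries form a set of their own, so cuprizone and library set cannot be told apart in the first of these tests. For cuprizone against naive libraries 5-11 the difference of the KO-against-Het effects passed for 0 of 37 members by edgeR, beside 0.0597% of all genes with a higher and 0.119% with a lower effect, and for 0 by DESeq2. The median differences were -0.076 and -0.049 in the cytosolic and mitochondrial classes; 1 cytosolic member had an unadjusted p under 0.05, and 2 mitochondrial members. For repopulation against naive libraries 1-5 the difference of the KO-against-WT effects also passed for 0 of 37 by edgeR, beside 0.00543% of all genes higher and 0.0326% lower, with a median of 0.332 in the cytosolic class and -0.04 in the mitochondrial class. There 9 of 20 cytosolic and 0 of 17 mitochondrial members had an unadjusted p under 0.05, and DESeq2 called 1 cytosolic member. Aars had the largest difference, at 1.07 ± 0.32, adjusted p = 0.412, and Eprs was at 0.81 ± 0.21, adjusted p = 0.192. The larger cytosolic changes at repopulation were therefore not shown to differ from those in naive microglia, whose KO 1 is among the libraries compared; leaving out any 1 library, KO 1 included, also gave 0 by edgeR in both tests.

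Other genes of the pathway were read beside the members, from lists that hold no member and were chosen with earlier results of these data known. Of 15 genes of the integrated stress response, 13 rose at repopulation against WT with a median log2 fold change of 1.83, among them Atf5 (3.90 ± 0.38), Asns (4.15 ± 0.61), Trib3 (5.92 ± 0.78) and the serine synthesis gene Psat1 (1.85 ± 0.28). In naive libraries 5-11, 11 of 15 rose and Ddit3 fell, and under cuprizone 9 rose while Atf4 (-1.0 ± 0.18) and Ddit3 fell. In naive libraries 1-5, 10 rose against Het and 9 against WT, in naive 12-13, 2 rose, and at depletion 4 rose against Het and 8 against WT. Atf4 itself was called higher by edgeR only at repopulation against WT (0.66 ± 0.19, adjusted p = 0.0341). Outside that comparison and cuprizone it was not called, at -0.43 ± 0.15 in naive libraries 5-11 (adjusted p = 0.0508, edgeR) and 0.09 to 0.53 in the others. Of 6 cytosolic elongation factor genes, 5 rose in naive libraries 5-11, in 1-5 against either control, under cuprizone, at depletion against WT and at repopulation against Het, 4 at repopulation against WT, and 1 in naive 12-13 and at depletion against Het. Eef2, which moves the ribosome along the message, was at 0.78 ± 0.15 at repopulation against WT (adjusted p = 0.000367).

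The mitochondrial side of translation gave fewer calls. Of 9 tested mitochondrial translation factor genes, Gfm1 rose in naive libraries 5-11 (0.46 ± 0.15, adjusted p = 0.0309). Gfm2, which acts in ribosome recycling, fell at repopulation (-0.80 ± 0.17 against Het, adjusted p = 0.00158; -0.60 ± 0.17 against WT, adjusted p = 0.0266). No other call was made by edgeR in the 9 comparisons. The summed level of these factors at depletion was 174 to 177 CPM in KO, against 199 to 237 CPM in Het libraries and 172 to 224 CPM in WT. The sum at repopulation was 176 to 196 CPM in KO, against 199 to 218 CPM in Het libraries and 181 to 225 CPM in WT. KO lay below Het and overlapped WT at both stages. In naive 12-13 KO was also below Het, at 171 to 181 CPM against 187 to 188 CPM, with a median log2 fold change of -0.209. KO overlapped its controls in naive 1-5, in naive 5-11 and under cuprizone. The median log2 fold change of these factors at depletion was -0.122 against Het and -0.288 against WT. The medians at repopulation were 0.154 and 0.101. A further 11 genes of transfer RNA charging included the subunits Qrsl1, Gatb and Gatc, which convert mischarged glutamyl-tRNA in mitochondria. Aarsd1, which edits mischarged transfer RNA for alanine, was the 1 gene of these called by edgeR. It was called in naive libraries 5-11 (0.91 ± 0.19, adjusted p = 0.000705) and at repopulation (0.94 ± 0.24 against Het and 0.92 ± 0.24 against WT). Of 8 interferon genes, whose inducers are also known to raise Wars, 1 was called in 1 comparison, cuprizone; at repopulation they summed to 283 to 320 CPM in KO, against 401 to 475 CPM in Het libraries and 330 to 471 CPM in WT, with no overlap.

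Markers of other cells gave few calls by edgeR. Lymphocyte markers summed to 0.164 to 0.942 CPM in KO libraries at repopulation, against 0.998 to 2.08 CPM in Het libraries and 0.928 to 2.80 CPM in WT, and 0 of 4 passed. Neuron markers summed to 1.23 to 4.42 CPM in those KO libraries, with Syt1 at 0 in each, against 2.08 to 6.04 CPM in Het libraries and 2.38 to 5.91 CPM in WT, and 0 of 4 passed. Endothelial markers summed to 26.4 to 64.4 CPM in KO, against 65.2 to 151 CPM in Het libraries and 79.6 to 143 CPM in WT, with Cldn5 of the 4 lower in KO against WT. Border-associated macrophage markers summed to 30.0 to 78.8 CPM in KO, against 41.3 to 68.1 CPM in Het libraries and 27.6 to 72.7 CPM in WT, with 0 of 6 called. In naive libraries 1-5 the endothelial sum was 67.5 to 316 CPM in KO, against 164 to 505 CPM in Het libraries and 265 to 375 CPM in WT, with 0 of 4 called. The macrophage sum there was 169 to 559 CPM in KO, against 522 to 809 CPM in Het libraries and 523 to 1200 CPM in WT, with 0 of 6 called. Elsewhere 1 neuron marker of 4 was higher in KO in naive libraries 5-11 and under cuprizone and lower in naive 1-5 against WT. The endothelial marker Pecam1 was lower in naive libraries 5-11, 1 of 3 monocyte markers was lower in naive 1-5 against WT, and 1 of 4 lymphocyte markers was lower under cuprizone, where all 4 were at 0 in KO. Astrocyte, oligodendrocyte and neutrophil markers gave no call, though some of their sums differed. Under cuprizone the 4 astrocyte markers summed to 137 to 167 CPM in KO, against 106 to 127 CPM in Het libraries, where Aqp4 was at 0, with a median log2 fold change of 1.40. In naive 12-13 the 4 oligodendrocyte markers summed to 198 to 207 CPM in KO, against 262 to 421 CPM in Het libraries. At depletion the 5 neutrophil markers summed to 0 to 63.8 CPM in KO, against 0.846 to 3.73 CPM in Het libraries and 0.306 to 8.09 CPM in WT, with medians of 4.10 and 4.15 that rest on 2 KO libraries. Sums of other lists were also apart. The 3 monocyte markers in naive 1-5 summed to 4.84 to 17.7 CPM in KO, against 24.2 to 46.0 CPM in WT libraries, and at repopulation to 3.20 to 5.85 CPM in KO, against 7.42 to 10.8 CPM in WT. The endothelial sum in naive 12-13 was 68.6 to 72.3 CPM in KO, against 92.9 to 99.9 CPM in Het libraries. The neuron sum there was higher in KO, at 6.05 to 9.21 CPM, against 1.18 to 4.10 CPM in Het libraries. Neuron markers at depletion summed to 4.13 to 5.01 CPM in KO, above Het (3.03 to 3.13 CPM) and mixed with WT (3.76 to 7.38 CPM). Lymphocyte markers in naive 1-5 summed to 0.686 to 1.46 CPM in KO, below WT (2.10 to 5.57 CPM) and mixed with Het (0.967 to 2.91 CPM). Klf4, a dissociation gene, was lower at repopulation against Het (-1.69 ± 0.51, adjusted p = 0.0376). Among microglial markers, Tmem119 was lower at repopulation against both controls and C1qa against Het, and P2ry12 was higher under cuprizone. The summed level of the microglial markers lay below every control at both PLX3397 stages. It was 37000 to 37100 CPM in KO at depletion, against 45100 to 52100 CPM in Het libraries and 43100 to 46700 CPM in WT, and 40200 to 44400 CPM in KO at repopulation, against 45200 to 51300 CPM in Het libraries and 47000 to 55600 CPM in WT. In naive 1-5 it was 37800 to 43200 CPM in KO, against 43900 to 49500 CPM in Het libraries and 41200 to 49800 CPM in WT, below Het and mixed with WT. The part of these levels in the synthetase results was not tested.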

How the data were processed

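The authors' deposited table holds raw counts per gene for 64 libraries, in whole numbers, with Ensembl identifiers and gene symbols. The submitters' processing notes name GRCm38 as the build and, among tools, Salmon 1.5.2 and STAR 2.6.1d, with Trim Galore 0.6.7 and bcl2fastq 2.20; which tool made the counts and its strand setting are not given in the sources used here. Libraries were stranded total RNA, per the labels' protocols.

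Groups came from the labels. edgeR 4.0.16 (R 4.3.3) was run on the counts with TMM scaling, filterByExpr (minimum count 10, total 15) and 1 mean per group and library set over all 64 libraries, with quasi-likelihood tests adjusted by Benjamini-Hochberg over 18413 genes (threshold 0.05). CPM are TMM-scaled; log2 CPM use a prior count of 2. Standard errors are the log2 fold change over the square root of F. The script was tested on simulated data. Limits on precision by depth cover counting error only.

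The members and lists were chosen with earlier results of these data known. Members called in at least 2 comparisons, and the 4 mitochondrial members with the smallest p, are given in every library; others by range, count or fold change. Nars2, Iars2, Mars2, Lars2, Qars, Cars and Farsa were singled out after their values were seen. Of the mitochondrial members and the microglial markers, 1 each is not reported singly here; the counts and medians include them. Alternatives were DESeq2 1.42.0 (Wald test), size factors, no filter, only the libraries compared, pooling over sets, sex as a covariate (41 male and 23 female libraries by 4 genes of the Y chromosome), a division of the cuprizone libraries by non-coding share at 3%, a replicate block, and leaving out each library, for which the trended dispersions of the full fit were kept. Sex read this way was not balanced between genotypes. In naive 1-5, Het 2-4 and KO 2 were female, and Het 1, the other KO libraries and all WT libraries were male. Among repopulation libraries Het 1-3 and KO 1 were female, and Het 4 and KO 2-4 were male.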

Additional observations from a re-analysis of the deposited data

Results flagged for a closer look

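Dixon's ratio at the 95% level was read in 187 tests, each of 1 named member in 1 group of 4 to 7 libraries. In 9 of them the level in 1 library lay far from the rest. Chance gives about 1 in 20 groups when tests are independent. The members were read in the same libraries, so 9 of 187 cannot be judged against that rate. Naive KO 1 accounted for 3 of the 9. Gars was at 64.12 CPM in naive KO 1, beside 89.86 to 97.76 CPM in KO 2-5. Eprs was at 64.71 CPM in the same library, beside 108.9 to 126.6 CPM, and Kars at 52.34 CPM, beside 60.05 to 62.75 CPM. In each case KO 1 was the lowest of the 5 KO libraries.

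Cuprizone KO 6 accounted for 2, with Yars low at 58.78 CPM beside 68.16 to 72.25 CPM in the other KO libraries, and Dars high at 65.21 CPM beside 43.46 to 51.61 CPM. Dars was also high in cuprizone Het 3, at 61.76 CPM beside 37.75 to 41.19 CPM in the other Het libraries. Among controls, Mars was at 97.24 CPM in naive Het 1, beside 72.59 to 75.77 CPM in Het 2-4. Aars was at 122.7 CPM in naive Het 4, beside 197.2 to 210.2 CPM in Het 1-3, and Eprs at 81.69 CPM in depletion WT 2, beside 66.24 to 68.72 CPM in the other WT libraries.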

How the results depend on the processing

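No call of a member reversed direction under any alternative. Of the 61 calls, 56 were also made by the DESeq2 Wald test, 56 with sex as a covariate, 50 with size factors, 46 without a filter, 44 pooled over library sets, 34 with only the libraries compared and 27 with the replicate block. Counts of called members that moved by over 1.5 times follow, cytosolic unless named mitochondrial; the cause was not tested. With the DESeq2 Wald test they were 8 in naive 1-5 against Het, 7 in naive 12-13, 4 under cuprizone, 3 at depletion against Het, 1 mitochondrial at depletion and 1 at repopulation against WT, and 1 for the repopulation difference. Size factors gave 4 under cuprizone, and 0 mitochondrial there and at repopulation against Het. Without a filter it was 3 in naive 1-5 against Het, 4 under cuprizone, 1 at depletion against WT, and 0 mitochondrial under cuprizone and at repopulation against Het. With only the libraries compared it was 3 in naive 1-5 against Het and 1 against WT, 5 in naive 5-11, 1 in naive 12-13, 2 under cuprizone and 1 at depletion against WT, with mitochondrial counts of 1 in naive 1-5 against Het, 0 in naive 5-11, 0 under cuprizone and 2 at repopulation against WT; this fit has fewer samples. Pooled over sets it was 12 in naive 1-5 against Het and 8 against WT, 12 in naive 12-13, 3 under cuprizone and 1 at depletion against WT, with mitochondrial counts of 3 and 4 in naive 1-5 against Het and WT, 3 in naive 12-13, and 0 under cuprizone and at repopulation against Het. Sex as a covariate left 0 mitochondrial under cuprizone and at repopulation against Het, and the cuprizone division 0 mitochondrial. The median log2 fold change of mitochondrial members at repopulation against Het, 0.042, turned to -0.014 with the DESeq2 Wald test and with size factors, to -0.013 without KO 2 and to -0.043 without Het 1, the lowest of a leave-one-out range that reached 0.147.

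Replicate numbers were not found to pair the libraries: same-numbered deviations correlated at -0.133 to 0.21 over the 9 comparisons, the highest in naive 1-5 against WT, where the lowest was -0.123. In no comparison with 3 or more pairs was every pair over 0.1. Depletion against Het, with 2 pairs, gave 0.159, and repopulation against WT gave -0.037 to 0.137. With 2 libraries in each group both pairs take the same value by construction. A positive value then makes each library closest to its own number, so this is no separate evidence of pairing. With the replicate block, on only the libraries compared, the count was 0 in naive 1-5 against Het and against WT, 3 in naive 5-11 (mitochondrial 0), 5 in naive 12-13, 0 under cuprizone (mitochondrial 0), 1 at depletion against WT, and 1 mitochondrial at repopulation against WT.

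Leaving out 1 library at a time gave 2 to 9 in naive 1-5 against Het, 3 to 7 against WT, 11 to 14 in naive 5-11 (mitochondrial 2 to 3), 0 to 1 in naive 12-13, 3 to 7 under cuprizone (mitochondrial 0 to 1), 0 to 1 at depletion against Het and 1 to 3 against WT, 9 to 10 at repopulation against Het (mitochondrial 0 in each) and 10 to 11 against WT. With 2 KO libraries at depletion and in naive 12-13, and larger standard errors in mitochondrial genes, a missed threshold there does not show that a gene was unaffected.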
